A study of Homo sapiens with 8 samples.

Results

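Cholesterol synthesis and sterol sensing were followed here through 34 genes of MDA-MB-231 cells, matched by gene name among the 16383 genes of the deposited tables. All 34 were listed, and all 34 entered the tests. They comprise 19 enzymes of the pathway, 7 genes of sterol sensing, 4 genes of the liver X receptor branch, and 4 genes of sterol movement and storage. Other genes of the pathway were not analysed here. MDA-MB-231 is an established human breast cancer line with a mesenchymal phenotype. The cells received 5 µM c-di-GMP, a bacterial cyclic dinucleotide that binds the innate immune sensor STING, or the vehicle PBS, for 24 h in DMEM with 10% fetal bovine serum. Each condition had 4 libraries, numbered 1 to 4. The labels do not say whether these came from separate cultures, so the p-values cover only how far these libraries vary, and that variation could be technical. The title of the series also names PSMD3 and metastasis, but no group here carries a PSMD3 manipulation.

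Cells build cholesterol from acetyl-CoA through mevalonate, isoprenoid diphosphates, squalene and lanosterol. When the endoplasmic reticulum is rich in sterol, INSIG proteins hold SCAP and its cargo, the SREBP transcription factors, in that membrane. When sterol is low, SCAP carries SREBPs to the Golgi, where a pair of proteases releases the part that enters the nucleus and switches on the synthesis genes. Liver X receptors act in the other direction: they sense oxysterols and switch on sterol export.

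Counts per library summed to between 16151360 and 18040010. One library stood apart. Vehicle replicate 3 correlated with the other libraries at 0.86 to 0.876 on log2 CPM (read counts scaled to library size), whereas the lowest correlation among the other 7 libraries was 0.988. Its TMM scaling factor was 0.683, against 1.04 to 1.06 elsewhere. The biological coefficient of variation was 36.3% over 8 libraries and 4.52% over 7. The mesenchymal markers VIM, CD44, FN1 and AXL reached 612 to 766, 795 to 842, 505 to 572 and 1060 to 1270 CPM in those 7 libraries, and the epithelial marker CDH1 only 1.89 to 3.9 CPM. EPCAM and GATA3 were low but present, at 11.2 to 15 and 9.01 to 13.9 CPM. Vehicle replicate 3 had 2140, 1010, 275 and 403 CPM of VIM, CD44, FN1 and AXL. It had 1.56, 57.2 and 24 CPM of CDH1, EPCAM and GATA3. Each comparison is therefore given with all 8 libraries and with vehicle replicate 3 set aside. Averages of CPM and FPKM are given ± SD over the 4 c-di-GMP libraries and over vehicle replicates 1, 2 and 4, and log2 fold changes ± SE, c-di-GMP over vehicle.

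With all 8 libraries, no member passed the test at an adjusted p of 0.05, and neither did any of the 15415 genes tested (0%), by edgeR's quasi-likelihood test. DESeq2 called 134 genes, none of them a member among those it gave an adjusted p, while 3 members (PMVK, MVD and EBP) received none, and limma-voom called 0, with 837 genes under an unadjusted p of 0.05. At an unadjusted p under 0.05, edgeR gave 4 members, beside 960 genes in all (6.23%). The 4 were TM7SF2, SCAP, NR1H2 and NR1H3, each lower with c-di-GMP and each with an adjusted p of 0.623. In 3 members (HMGCS1, STARD4 and NPC1) every c-di-GMP library lay above every vehicle library, beside 6.5% of all genes. In 5 members (MVD, TM7SF2, SCAP, NR1H2 and NR1H3) every c-di-GMP library lay below, beside 7.4% of all genes. The median log2 fold change, c-di-GMP over vehicle, was -0.045 over the members and -0.049 over all genes. Scaling by library totals without TMM moved the median of all genes to 0.084 and that of the members to 0.15.

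With vehicle replicate 3 left out, 13 members rose with c-di-GMP and 6 fell. Of all 15647 genes tested, 13.5% rose and 16.2% fell. The members that rose included INSIG1, IDI1, STARD4, FDFT1, MSMO1 and HMGCS1. Those that fell were MVD, TM7SF2, SREBF2, SCAP, NR1H2 and NR1H3. No change reached 1.5-fold. CPM did not overlap between the groups in 14 members that were higher with c-di-GMP (16.4% of all genes) and 7 that were lower (18.8%). The median log2 fold change was 0.068 over the members and 0.0014 over all genes. Of the 13 rises, 7 had the opposite sign when vehicle replicate 3 was kept, as did 1 of the 6 falls, that of SREBF2. Scaled by library totals without TMM, IDI1, MSMO1, NSDHL and INSIG2 were positive with all 8 libraries (0.12, 0.087, 0.12 and 0.18). ACAT2, FDFT1 and NPC2 stayed negative (-0.0091, -0.13 and -0.017), and SREBF2 stayed positive (0.17).

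**Figure D1:**
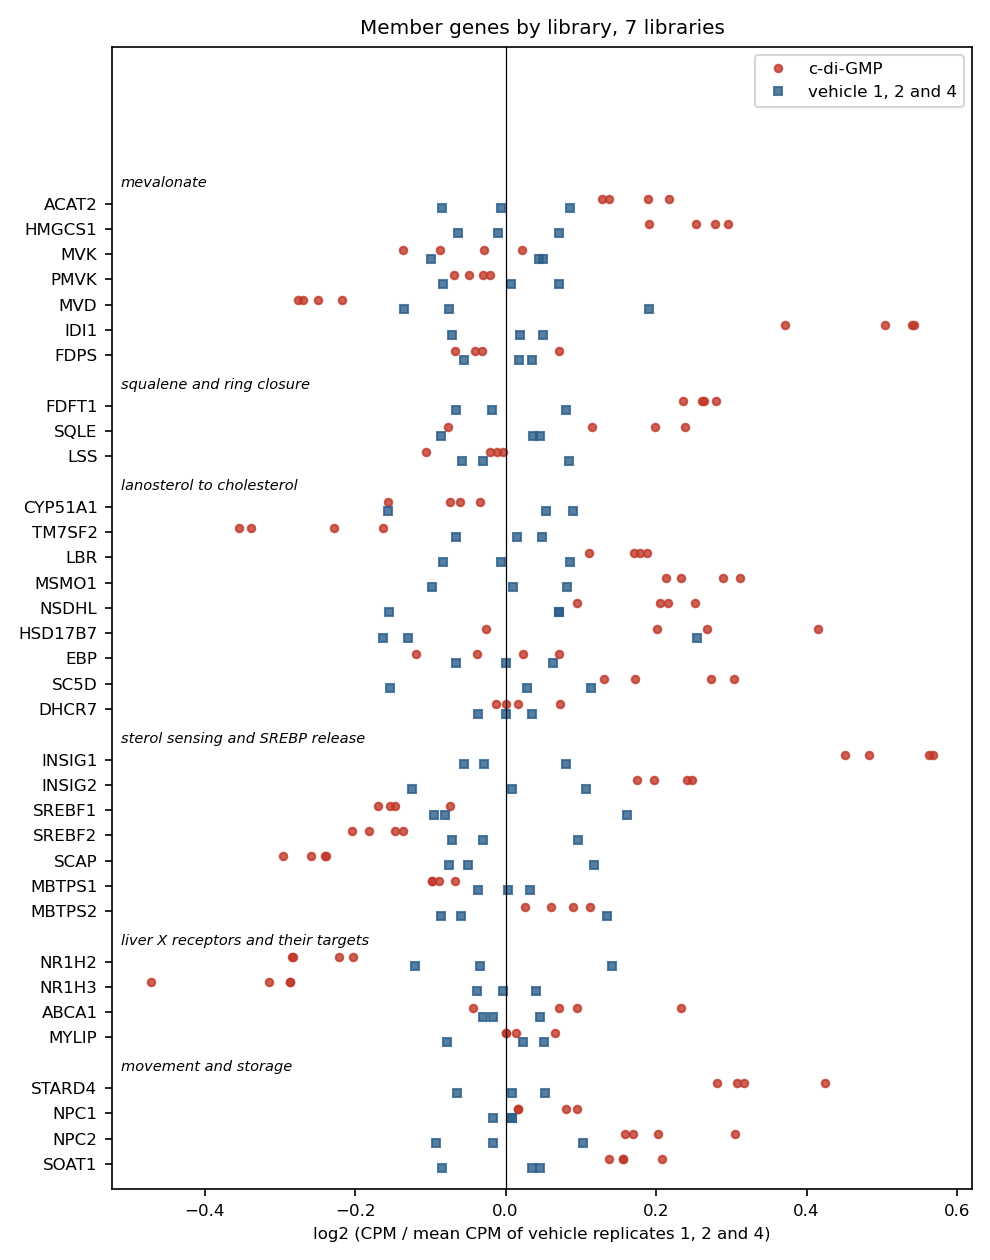
CPM of each member in the 4 c-di-GMP libraries and vehicle replicates 1, 2 and 4, as log2 ratio to the mean of those 3 vehicle libraries, by role. INSIG1 and IDI1 lie farthest to the right, and MVD, TM7SF2, SREBF2, SCAP, MBTPS1, NR1H2 and NR1H3 lie left of the vehicle points.

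The fold changes followed base composition. Across the 34 members, the log2 fold change in 7 libraries had a Spearman correlation of -0.771 with the GC content of the longest transcript, and -0.589 across all genes tested. The points share the same libraries, so this is a description. GC content of the members that fell ran from 55.4% (NR1H3) to 64.2% (TM7SF2), whereas members that rose ran from 34.2% (STARD4) to 50.5% (NSDHL). After a GC trend was removed from each library, the correlation across members was -0.0613. In that corrected comparison 10 members rose and 0 fell, beside 8.58% of all genes that rose and 6.62% that fell. Their median log2 fold change was 0.094, against -0.0029 over all genes. Both comparisons called 7 members higher, namely ACAT2, IDI1, FDFT1, NSDHL, INSIG1, STARD4 and NPC2. LSS, DHCR7 and SREBF1 rose only in the corrected comparison, and 12 members were called in neither. Of the 10 corrected rises, 6 had the opposite sign with all 8 libraries scaled by TMM.

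**Figure D2:**
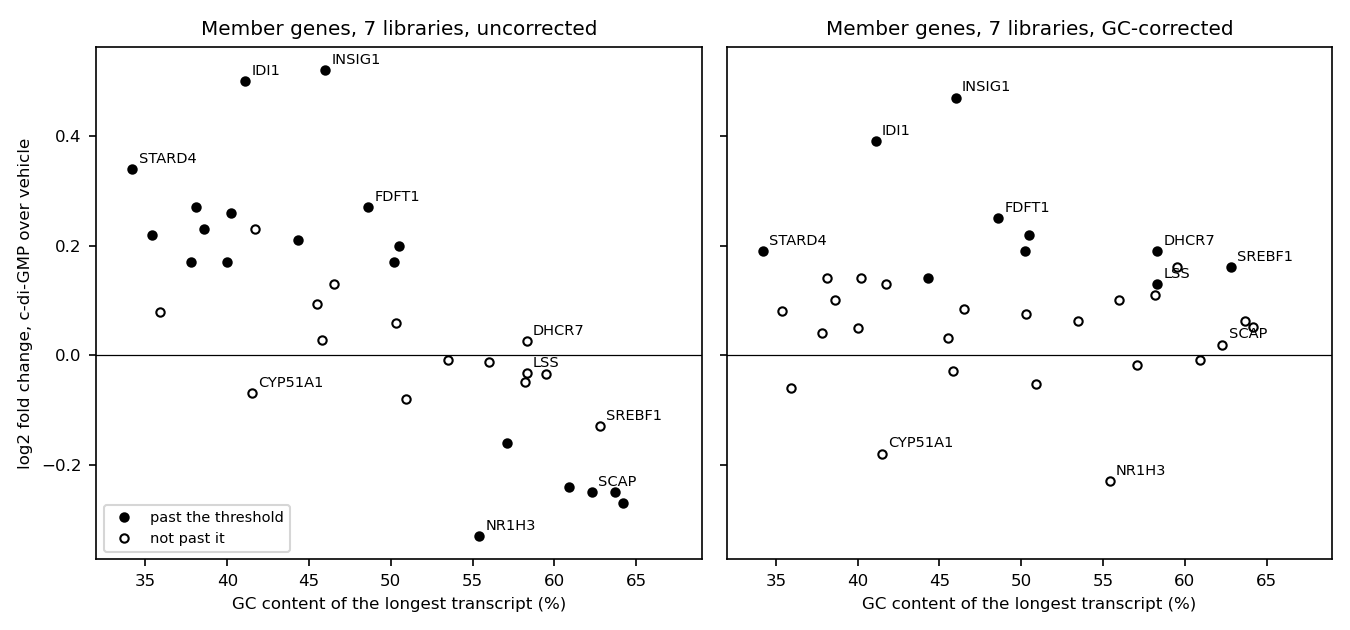
Log2 fold change (c-di-GMP over vehicle, 7 libraries) against GC content (%) of each member's longest transcript, before and after removal of the GC trend; each point is 1 member. The Spearman correlation is -0.771 before and -0.0613 after.

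Promoter windows are shown for 4 members, INSIG1, IDI1 and STARD4 because they kept their calls in every 7-library alternative below, and SREBF2 because it holds the only match to the sterol element. RefSeq (GRCh38.p14) gave windows of 250 bases before to 50 after the start for 31 of the 34 members, 41 windows in all. ACAT2, FDFT1 and SQLE had no entry. Capitals mark CCAAT, the box bound by the factor NF-Y, and TCACNCCAC, the core of the classical sterol regulatory element, on either strand (on the reverse strand the printed letters are their reverse complement).

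INSIG1, chr7:155297628-155297927, plus strand: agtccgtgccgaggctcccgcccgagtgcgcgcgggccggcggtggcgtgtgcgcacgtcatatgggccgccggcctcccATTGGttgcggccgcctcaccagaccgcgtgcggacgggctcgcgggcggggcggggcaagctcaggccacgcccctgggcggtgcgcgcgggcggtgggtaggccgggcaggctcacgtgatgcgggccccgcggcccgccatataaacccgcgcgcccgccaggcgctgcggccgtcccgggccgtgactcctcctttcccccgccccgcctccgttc
IDI1, chr10:1049070-1049369, minus strand: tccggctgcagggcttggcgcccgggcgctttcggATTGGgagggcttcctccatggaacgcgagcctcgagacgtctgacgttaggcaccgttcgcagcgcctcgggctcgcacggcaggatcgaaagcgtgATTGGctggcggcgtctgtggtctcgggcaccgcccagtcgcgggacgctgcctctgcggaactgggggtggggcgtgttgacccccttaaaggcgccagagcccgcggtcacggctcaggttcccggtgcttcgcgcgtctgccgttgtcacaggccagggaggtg
STARD4, chr5:111512486-111512785, minus strand: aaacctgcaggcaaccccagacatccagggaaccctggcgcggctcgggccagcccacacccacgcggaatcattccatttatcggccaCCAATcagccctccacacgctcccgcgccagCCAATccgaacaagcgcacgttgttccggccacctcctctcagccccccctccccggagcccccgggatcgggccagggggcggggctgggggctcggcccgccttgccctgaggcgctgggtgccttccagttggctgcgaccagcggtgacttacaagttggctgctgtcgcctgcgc
SREBF2, chr22:41832855-41833154, plus strand: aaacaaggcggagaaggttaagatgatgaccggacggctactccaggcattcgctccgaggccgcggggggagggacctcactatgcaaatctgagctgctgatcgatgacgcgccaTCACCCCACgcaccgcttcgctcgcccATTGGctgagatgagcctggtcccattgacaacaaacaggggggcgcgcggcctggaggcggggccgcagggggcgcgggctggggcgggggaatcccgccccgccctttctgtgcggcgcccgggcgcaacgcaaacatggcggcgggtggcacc

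INSIG1 has CCAAT at position -170 from the start, IDI1 at -215 and -117 in the window shown, STARD4 at -161 and -130, and SREBF2 at -106. The window shown for IDI1 is the nearest to the start of the gene as deposited. IDI1 has further windows, chr10:1048837-1049136 with CCAAT at -132, -129 and -87, and chr10:1056655-1056954 without a match. CCAAT was found in 22 of the 41 member windows (53.7%), and in 34.6% of all 35116 windows. It occurred at least 2 times in 14 member windows (34.1%), and in 10.8% of all windows. TCACNCCAC was found in 1 member window (2.44%), that of SREBF2, at position -133 from the start, and in 1.13% of all windows. A match is a description of letters, not evidence of binding, and other forms of these elements were not searched. Of the 8 members with a window that rose in the corrected comparison, 7 had CCAAT. So did 13 of the 23 with a window that were not called, and 20 of all 31 with a window. Before correction, CCAAT was in 9 of 11 that rose, 4 of 6 that fell and 7 of 14 not called.

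The mevalonate steps, which turn acetyl-CoA into isoprenoid diphosphates, had 3 of 7 members higher and 1 lower before GC correction, and 2 higher after it. Beside this and each following role, 13.5% of all genes were higher and 16.2% lower before correction, and 8.58% and 6.62% after it. IDI1, the isomerase that interconverts the isoprenoid diphosphates, had 58.1, 53.0, 59.7 and 59.6 CPM in c-di-GMP replicates 1 to 4, against 39.0, 42.4 and 41.5 CPM in vehicle replicates 1, 2 and 4. Every c-di-GMP library was above those 3. Vehicle replicate 3, however, stood at 140 CPM, above all of them. The log2 fold change of IDI1 was 0.50 ± 0.057 (SE, adjusted p = 9.32e-07) in 7 libraries and 0.39 ± 0.051 (adjusted p = 7.17e-06) after GC correction, but -0.20 ± 0.44 (adjusted p = 0.862) with all 8. ACAT2, the cytosolic thiolase that joins acetyl-CoA units, averaged 49.6 ± 1.48 CPM with c-di-GMP (SD, n = 4) and 44.2 ± 2.62 CPM in vehicle (SD, n = 3). Its change was 0.17 ± 0.056 (adjusted p = 0.0226) and 0.19 ± 0.051 after correction (adjusted p = 0.0134). Without vehicle replicate 1 these calls were lost (adjusted p = 0.0941 and 0.114), as was the uncorrected call without vehicle replicate 4 (0.0714) or c-di-GMP replicate 1 (0.0845). ACAT2 shares 397 exon bases with TCP1, 1141 with SOD2 and 1458 with SOD2-OT1, all on the opposite strand. Of these, only TCP1 is among the genes listed. Strand use in counting is not given in the sources used here.

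HMGCS1, the synthase of the next step, had 33.6, 34, 31.6 and 33 CPM with c-di-GMP, against 26.5, 29.1 and 27.5 CPM in vehicle replicates 1, 2 and 4. Vehicle replicate 3 was lower still, at 9.99 CPM, so no vehicle library reached the c-di-GMP range. Its change was 0.26 ± 0.061 (adjusted p = 0.00228), and 0.14 ± 0.055 after GC correction, which did not pass (adjusted p = 0.0783). MVD, the decarboxylase, averaged 21.9 ± 0.396 CPM with c-di-GMP and 26.0 ± 3.2 CPM in vehicle replicates 1, 2 and 4. It fell by 0.25 on the log2 scale (SE 0.073, adjusted p = 0.0131), and the corrected change was 0.063 ± 0.06 (adjusted p = 0.556). Vehicle replicate 1 held the highest of the 3 values, 29.7 CPM, and without it MVD no longer passed (-0.14, adjusted p = 0.154). With all 7 libraries it also missed the threshold in limma on log2(FPKM + 1) (-0.19, adjusted p = 0.0613) and log2(FPKM + 0.1) (-0.22, adjusted p = 0.06). The kinases MVK and PMVK and the farnesyl diphosphate synthase FDPS passed in neither comparison. Their averages were 24.5 ± 1.17, 30.2 ± 0.425 and 63.3 ± 2.67 CPM with c-di-GMP, against 25.5 ± 1.49, 31.1 ± 1.66 and 64.0 ± 2.1 CPM in those vehicle libraries.

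Squalene synthesis and ring closure had 1 of 3 members higher before correction and 2 after it. FDFT1, which joins farnesyl units into squalene, had 63.6, 63.7, 64.4 and 62.5 CPM with c-di-GMP, against 50.7, 52.4 and 56.1 CPM in vehicle replicates 1, 2 and 4, and 185 CPM in vehicle replicate 3. The groups did not overlap without that last library. The change was 0.27 ± 0.051 (adjusted p = 0.000347) and 0.25 ± 0.045 after correction (adjusted p = 0.000263), against -0.46 ± 0.45 (adjusted p = 0.70) with all 8. LSS, the cyclase that forms lanosterol, averaged 156 ± 4.85 CPM with c-di-GMP and 161 ± 8.47 CPM in the 3 vehicle libraries. In GC-corrected CPM it averaged 173 ± 4.58 with c-di-GMP and 158 ± 0.365 in vehicle, a change of 0.13 ± 0.033 (adjusted p = 0.00643). SQLE, the monooxygenase between them, averaged 17.0 ± 1.61 and 15.6 ± 0.789 CPM in c-di-GMP and vehicle libraries and was not called.

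The steps from lanosterol to cholesterol had 4 of 9 members higher and 1 lower before correction, and 2 higher after it. The uncorrected rises were LBR, a sterol reductase that also anchors chromatin at the nuclear envelope, the methylsterol monooxygenase MSMO1, the dehydrogenase NSDHL and the desaturase SC5D. MSMO1 had 38.1, 35.6, 36.1 and 37.5 CPM with c-di-GMP, against 28.7, 30.9 and 32.5 CPM in vehicle replicates 1, 2 and 4. Its change was 0.27 ± 0.061 (adjusted p = 0.00172), and 0.14 ± 0.054 after correction (adjusted p = 0.0792). LBR averaged 172 ± 3.96 CPM with c-di-GMP and 154 ± 8.92 CPM in vehicle. Its corrected change was 0.04 ± 0.034 (adjusted p = 0.501). NSDHL was called in both comparisons, at 0.20 ± 0.069 (adjusted p = 0.034) and 0.22 ± 0.065 (adjusted p = 0.0213). Without vehicle replicate 4 those values were 0.12 (adjusted p = 0.249) and 0.15 (adjusted p = 0.178), and both calls were also lost without c-di-GMP replicate 1 (0.107 and 0.0673), 3 (0.0773 and 0.0573) or 4 (0.0897 and 0.0611). With all 7 libraries, DESeq2 lost the uncorrected call (0.0541), the length trend lost the corrected one (0.0924), and the replicate block lost both (0.0573 and 0.0592). The SC5D change of 0.23 ± 0.067 (adjusted p = 0.0114) was lost without vehicle replicate 2 (0.0822) or c-di-GMP replicate 4 (0.0581), and was 0.10 ± 0.065 after correction (adjusted p = 0.316).

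DHCR7, the last reductase of one branch of the pathway, averaged 69.6 ± 1.79 CPM with c-di-GMP and 68.7 ± 1.72 CPM in vehicle. After GC correction it averaged 77.3 ± 1.84 and 67.7 ± 2.1 CPM in c-di-GMP and vehicle libraries, a rise of 0.19 ± 0.04 (adjusted p = 0.00163). TM7SF2, a reductase that catalyses the same step as LBR, averaged 10.6 ± 0.659 CPM with c-di-GMP and 12.8 ± 0.531 CPM in vehicle. Its fall of 0.27 on the log2 scale (SE 0.089, adjusted p = 0.0255) was lost without vehicle replicate 2 (0.0737) or 4 (0.0626), without c-di-GMP replicate 1 (0.0611) or 4 (0.0717), and by DESeq2 (0.0527). The corrected change was 0.052 ± 0.093 (adjusted p = 0.774). The isomerase EBP averaged 52.2 ± 2.95 and 52.7 ± 2.35 CPM in c-di-GMP and vehicle libraries and was not called. The ketosteroid reductase HSD17B7 averaged 10.8 ± 1.36 CPM with c-di-GMP and 9.22 ± 1.54 CPM in vehicle, and passed only without vehicle replicate 2 (0.38, adjusted p = 0.0159). Its pseudogene HSD17B7P2 held 7 to 35 counts per library. CYP51A1, the lanosterol demethylase, averaged 10.8 ± 0.414 and 11.4 ± 1.0 CPM in c-di-GMP and vehicle libraries. Its values are uncertain, because 2844 of its 3584 exon bases also belong to AC000120.2 on the same strand.

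Sterol sensing had 2 of 7 members higher and 2 lower before correction, and 2 higher after it. INSIG1, the sterol-dependent anchor that holds SCAP in the endoplasmic reticulum and is itself an SREBP target, had 59.3, 54.7, 59.1 and 55.9 CPM with c-di-GMP. Vehicle replicates 1, 2 and 4 had 39.2, 38.5 and 42.3 CPM, all below the c-di-GMP libraries, and vehicle replicate 3 had 76.1 CPM, above them. That last value depends on the scaling: it was 1.9-fold the other vehicle mean with TMM and 1.23-fold by library totals. The change was 0.52 ± 0.056 (adjusted p = 3.63e-07), 0.47 ± 0.051 after GC correction (adjusted p = 7.87e-07), and 0.21 ± 0.24 with all 8 libraries (adjusted p = 0.738). Scaled by library totals without TMM, the change with all 8 was 0.44 ± 0.12 (adjusted p = 0.833). INSIG1 had the highest fold change of the 34 members in both 7-library comparisons. INSIG2, its paralog, averaged 49.5 ± 1.2 CPM with c-di-GMP and 42.7 ± 3.42 CPM in vehicle, a rise of 0.22 ± 0.058 (adjusted p = 0.00597). Its corrected change was 0.08 ± 0.048 (adjusted p = 0.308).

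SCAP, the escort of SREBPs, had 100, 96.1, 99.9 and 98.6 CPM with c-di-GMP, against 128, 112 and 114 CPM in vehicle replicates 1, 2 and 4 and 188 CPM in vehicle replicate 3. Every c-di-GMP library was below every vehicle library. SCAP fell by 0.25 on the log2 scale (SE 0.048, adjusted p = 0.000397). After correction it averaged 113 ± 1.05 and 111 ± 0.78 CPM in c-di-GMP and vehicle libraries, with a change of 0.019 ± 0.033 (adjusted p = 0.768). SREBF2, which encodes the SREBP that mainly serves cholesterol genes, averaged 128 ± 3.08 CPM with c-di-GMP and 144 ± 8.74 CPM in vehicle. It fell by 0.16 (SE 0.045, adjusted p = 0.0101), and its corrected change was -0.019 ± 0.033 (adjusted p = 0.766). SREBF1, which encodes the SREBPs that mainly serve fatty acid genes, averaged 194 ± 5.7 CPM with c-di-GMP and 213 ± 22.4 CPM in vehicle. The uncorrected change was -0.13 ± 0.052 (adjusted p = 0.0605) and passed without vehicle replicate 2 (-0.17, adjusted p = 0.0144) or 4 (-0.18, adjusted p = 0.0232). The corrected change was 0.16 ± 0.034 (adjusted p = 0.00229), so its direction depended on the correction. The Golgi proteases that release SREBPs, MBTPS1 and MBTPS2, averaged 138 ± 1.08 and 55.4 ± 1.44 CPM with c-di-GMP, against 147 ± 3.63 and 52.6 ± 4.48 CPM in vehicle. Neither was called, although MBTPS2 passed without vehicle replicate 2 (0.15, adjusted p = 0.0475).

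**Figure D3:**
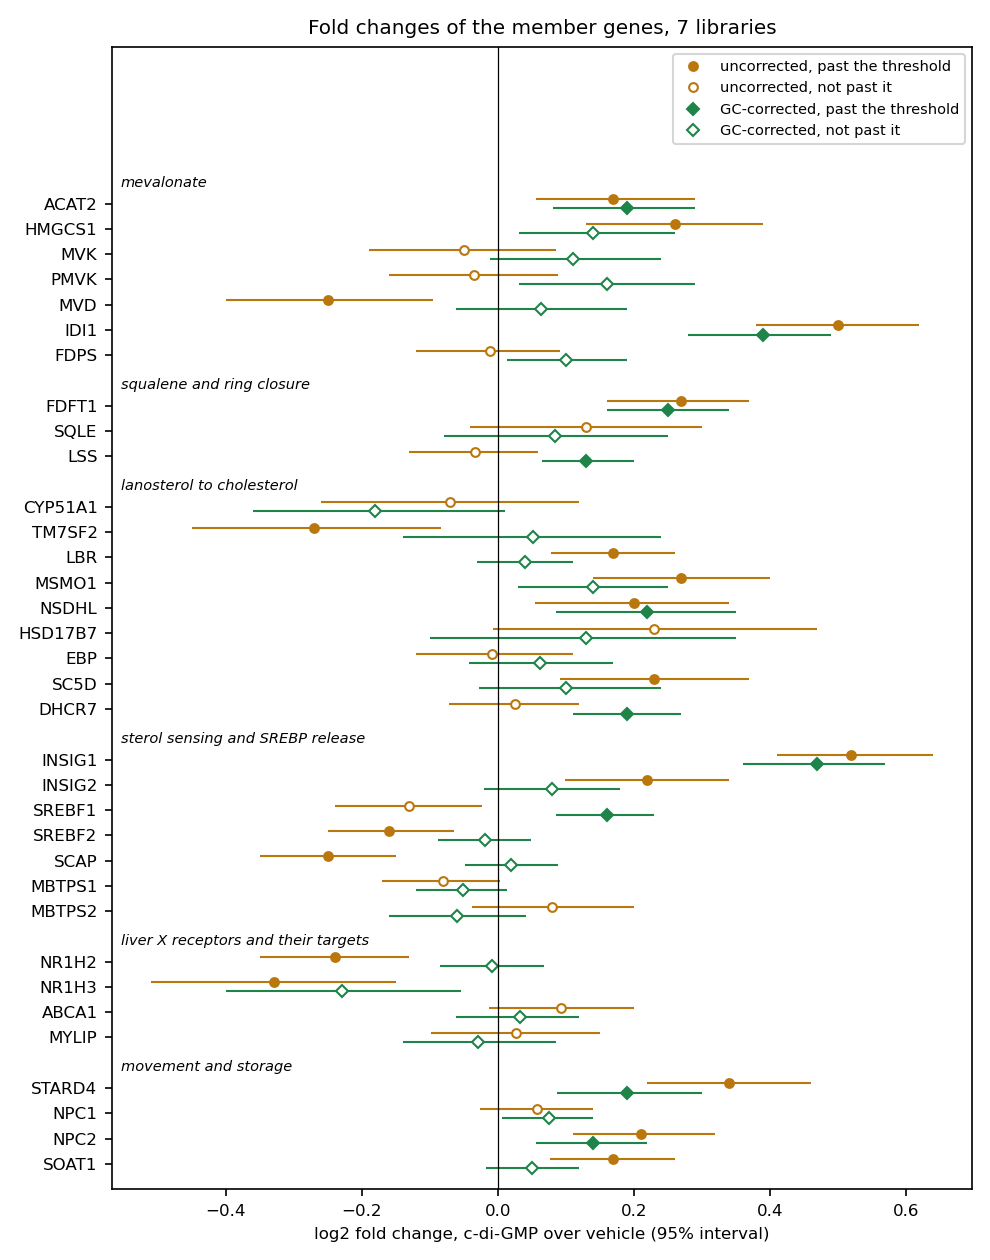
Log2 fold change (c-di-GMP over vehicle) of each member in 7 libraries with 95% intervals, before and after GC correction, by role. INSIG1 reads 0.52 before and 0.47 after correction and IDI1 0.50 and 0.39, while SCAP reads -0.25 and 0.019.

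The liver X receptor branch had 0 of 4 members higher and 2 lower before correction, and none called after it. NR1H3, liver X receptor alpha, had 10.6, 9.33, 10.6 and 10.4 CPM with c-di-GMP, against 13.3, 12.9 and 12.6 CPM in vehicle replicates 1, 2 and 4 and 28.5 CPM in vehicle replicate 3. No c-di-GMP library reached the vehicle range. NR1H3 fell by 0.33 on the log2 scale (SE 0.088, adjusted p = 0.00603), and its corrected change was -0.23 ± 0.084 (adjusted p = 0.0704). With a length trend removed as well, NR1H3 passed at the threshold (-0.25, adjusted p = 0.05 after rounding) and was the only member called lower in that setting, beside 10 called higher. Of all 15647 genes tested in that setting, 1162 were higher and 888 lower. NR1H2, liver X receptor beta, averaged 75.8 ± 2.2 CPM with c-di-GMP and 90.0 ± 8.45 CPM in vehicle. It fell by 0.24 (SE 0.054, adjusted p = 0.0014), and its corrected change was -0.0084 ± 0.037 (adjusted p = 0.916). The receptors' targets were not called: ABCA1, which exports cholesterol, averaged 119 ± 9.4 CPM with c-di-GMP and 112 ± 3.13 CPM in vehicle. MYLIP, a ubiquitin ligase for lipoprotein receptors, averaged 30.6 ± 0.67 and 30.2 ± 1.42 CPM in c-di-GMP and vehicle libraries.

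Sterol movement and storage had 3 of 4 members higher before correction and 2 after it. STARD4, a carrier that moves cholesterol between membranes, had 51.5, 47.8, 46.6 and 47.5 CPM with c-di-GMP, against 36.7, 38.6 and 39.8 CPM in vehicle replicates 1, 2 and 4. Vehicle replicate 3, at 45.5 CPM, also lay below every c-di-GMP library. Its change was 0.34 ± 0.057 (adjusted p = 9.38e-05), 0.19 ± 0.051 after correction (adjusted p = 0.0101), and 0.26 ± 0.11 with all 8 libraries (adjusted p = 0.623). NPC2, which hands cholesterol to NPC1 in the lysosome, averaged 136 ± 6.27 CPM with c-di-GMP and 117 ± 7.87 CPM in vehicle, a rise of 0.21 ± 0.049 (adjusted p = 0.00185). The corrected rise of 0.14 ± 0.04 (adjusted p = 0.0185) was lost without vehicle replicate 1 (0.105) or 4 (0.103) or c-di-GMP replicate 4 (0.105), and with a length trend removed (0.045, adjusted p = 0.451). SOAT1, which esterifies cholesterol for storage, averaged 164 ± 3.65 CPM with c-di-GMP and 146 ± 7.07 CPM in vehicle. It rose by 0.17 ± 0.044 (adjusted p = 0.00531), and its corrected change was 0.05 ± 0.033 (adjusted p = 0.352). NPC1 averaged 183 ± 5.44 and 176 ± 1.72 CPM in c-di-GMP and vehicle libraries and was not called. With the length trend removed, NPC1 (0.11, adjusted p = 0.0194) and SOAT1 (0.099, adjusted p = 0.0359) passed.

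INSIG1, IDI1, FDFT1 and STARD4 kept their calls in each of the 16 alternatives of the 7-library comparison and each of the 13 of the GC-corrected one. Over those, the corrected log2 fold change ran from 0.44 to 0.51 for INSIG1, 0.37 to 0.43 for IDI1, 0.22 to 0.30 for FDFT1 and 0.16 to 0.21 for STARD4. These 4 belong to 4 different roles. STARD4 shares 124 exon bases with STARD4-AS1 on the opposite strand. Among the other members, such overlaps include NPC1 with RMC1 (604 bases), SREBF1 with RAI1 (556 bases), MVK with MMAB (306 bases) and NR1H3 with ACP2 (189 bases), and MBTPS2 shares 1093 bases with YY2 on the same strand. In bulk RNA, a change in the share of cells that express a gene and a change in RNA per cell cannot be told apart.

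**Figure D4:**
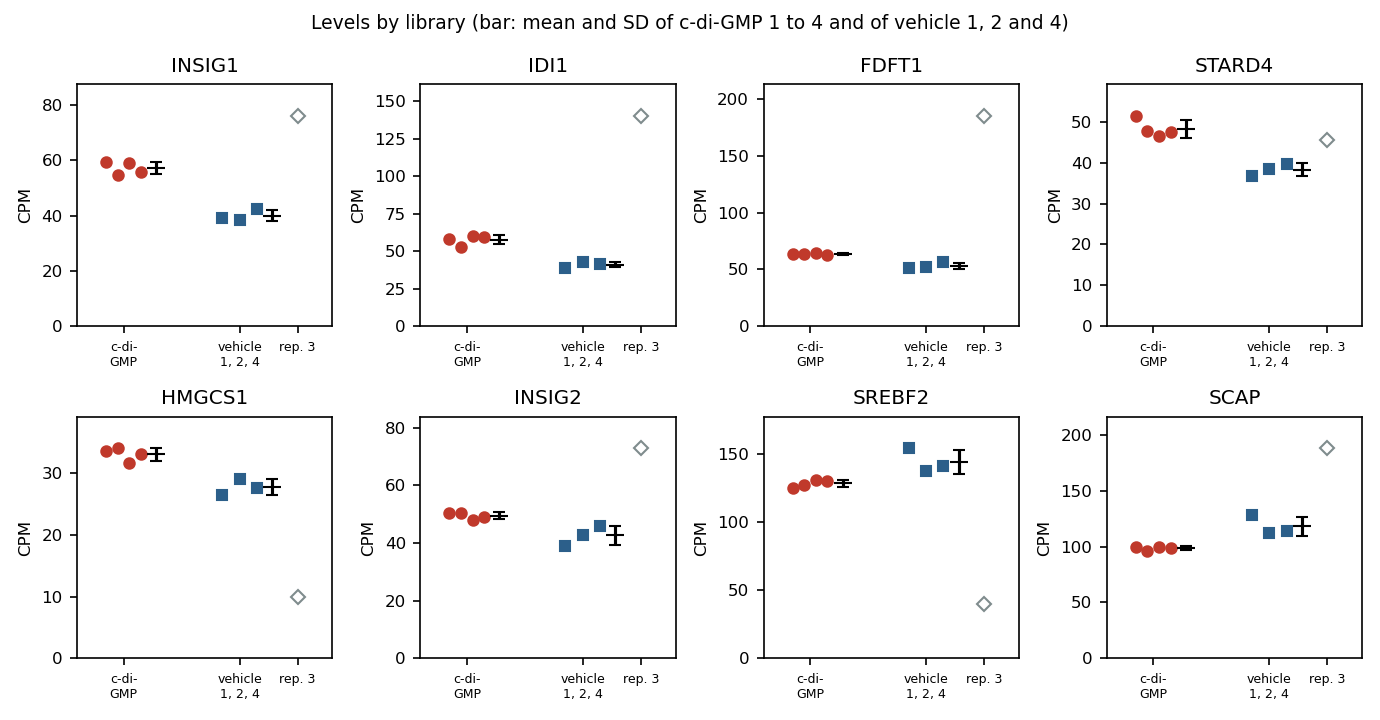
CPM, scaled by TMM, of selected members in each c-di-GMP library, in vehicle replicates 1, 2 and 4, and in vehicle replicate 3. INSIG1 reads 54.7 to 59.3 CPM with c-di-GMP, against 38.5 to 42.3 CPM in the 3 vehicle libraries and 76.1 CPM in vehicle replicate 3.

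Levels between genes were compared per exon length, as FPKM in 7 libraries with vehicle replicate 3 set aside. Exon length here joins all exons of a gene and can exceed the longest transcript, as in SREBF1 (8030 against 4653 bases). The order by transcript length was not tested. NPC2 was the most abundant member, at 49.2 ± 2.22 FPKM with c-di-GMP and 41.9 ± 2.95 FPKM in vehicle. LBR followed, at 32.7 ± 0.795 and 28.7 ± 1.62 FPKM in c-di-GMP and vehicle libraries. SREBF1, PMVK and SOAT1 came next with c-di-GMP, at 24.1 ± 0.74, 23.6 ± 0.376 and 23.3 ± 0.475 FPKM, and these 3 differ by about their spread. The least abundant were HSD17B7 and NR1H3, both at 2.25 FPKM with c-di-GMP, against 1.89 and 2.8 FPKM in vehicle. CYP51A1 and TM7SF2 stood at 2.99 and 3.09 FPKM with c-di-GMP.

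Vehicle replicate 3 differed from its own group in most members. In CPM, 21 members lay above and 10 below all 7 other libraries, and 18 were more than 2-fold from the mean of the other vehicle libraries. By library totals without TMM, 11 lay above and 17 below, and 15 were more than 2-fold away. The direction of many members in that library therefore depends on the scaling. PMVK, at 356 CPM, was 11.4-fold above the other vehicle mean, EBP 6.43-fold and MVD 5.37-fold. By library totals these ratios were 7.42, 4.17 and 3.48. CYP51A1 held 4 counts there, a ratio of 0.0306, and NPC1 stood at 0.149. Across members, the log2 ratio had a Spearman correlation of -0.457 with exon length, and -0.261 across all genes tested. Its part in the results was not tested.

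**Figure D5:**
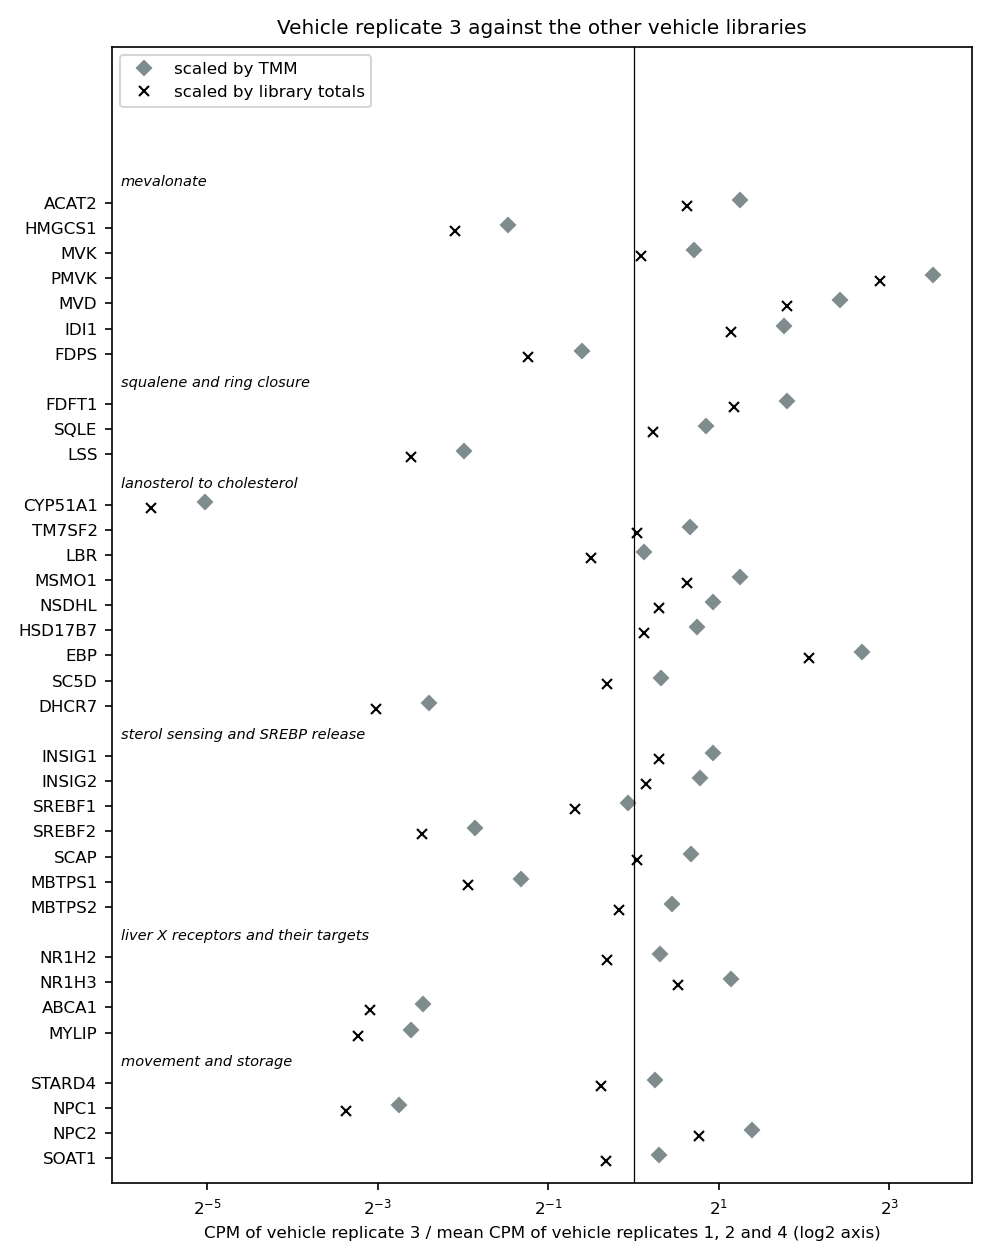
CPM of vehicle replicate 3 over the mean of vehicle replicates 1, 2 and 4, per member, on a log2 axis; diamonds are scaled by TMM and crosses by library totals. PMVK, EBP and MVD lie farthest above 1, and CYP51A1 and NPC1 farthest below.

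Related genes outside the 34 were read from 5 further lists, with up to 4 genes each named by the smallest corrected p. Over all genes, 13.5% rose and 16.2% fell before correction, and 8.58% rose and 6.62% fell after it. Fatty acid targets of SREBP had 7 of 15 higher and 3 lower before correction, and 7 higher and 1 lower after it. SCD, the stearoyl-CoA desaturase, averaged 481 ± 11.8 CPM with c-di-GMP and 367 ± 9.67 CPM in vehicle, a corrected rise of 0.36 ± 0.033 (adjusted p = 5.31e-08). The desaturases FADS2 and FADS1 and the elongase ELOVL1 rose by 0.22, 0.17 and 0.18 after correction. Of 14 genes for other products of mevalonate, 4 rose before correction and 2 after it, DOLK (0.33 ± 0.064, adjusted p = 0.000642) and RCE1 (0.25 ± 0.068, adjusted p = 0.0142), while FNTB and ICMT did not pass (adjusted p = 0.0773 and 0.096). Of 12 ligases and partners of sterol-regulated degradation, 1 rose and 2 fell before correction, and 3 rose and 1 fell after it. AUP1, TMUB1 and ERLIN1 rose by 0.30, 0.19 and 0.13 after correction. TMUB1 had fallen by 0.20 before correction. Of 26 sterol transfer, efflux and hydrolysis genes tested, 6 rose and 4 fell before correction, and 4 rose and 3 fell after it. CAV1 and TSPO rose by 0.19 and 0.25 after correction, and GRAMD1B and LRP1 fell by 0.25 and 0.20. Of 4 genes tested from a list on oxysterol metabolism, 0 were called before correction and 1 after it, HSD3B7 (0.39 ± 0.092, adjusted p = 0.00445). CH25H, EPHX1 and CYP27A1 did not pass (adjusted p = 0.0903, 0.246 and 0.809). With all 8 libraries none of these genes passed.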

How the data were processed

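RNA-seq of MDA-MB-231 cells was deposited as a table of raw read counts per gene and a table of FPKM values, both made by the authors. Per the submitters' processing notes, the tools named include DESeq2 1.20.0, featureCounts 1.5.0-p3, fastp and HISAT2 2.0.5; their settings are not given in the sources used here. The notes name a mouse build, but all 16383 genes have the coordinates of human GENCODE v29 (GRCh38). In the count table, 22 gene names had become dates and were restored from their gene IDs.

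Genes entered the test through filterByExpr, at a minimum total of 15 and a minimum count of 10. Libraries were scaled by TMM, and edgeR 4.0.16 (quasi-likelihood, R 4.3.3) was run with Benjamini-Hochberg adjustment over all genes tested and a threshold of 0.05. CPM use TMM factors from all 8 libraries. The fit was repeated without vehicle replicate 3, and again with a per-library lowess trend (span 0.3) on each gene's GC content (longest transcript) as an offset. The scripts were tested on simulated counts. Alternatives were DESeq2 1.42.0, limma 3.58.1 (voom, or log2 of FPKM plus 1 or 0.1), other scalings and filters, a replicate block, a length trend, and leaving out each library. At these depths, 3 counts correspond to 0.157 to 0.175 CPM in 7 libraries and to 0.261 CPM in vehicle replicate 3. All 34 members are named. Of each further list, up to 4 genes with the smallest corrected p are named. A gene that this rule selects is not reported here. The members and lists were chosen with earlier results of these data known.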

Additional observations from a re-analysis of the deposited data

Results flagged for a closer look

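Among 68 groups of 4 libraries (34 members in each condition), 26 had 1 library whose gap to its nearest neighbour was, as a share of the group's range, above Dixon's 95% critical value; that share is in parentheses below. Chance gives about 1 group in 20. Of these, 24 were vehicle groups in which replicate 3 stood apart. Replicate 3 was high in 14: ACAT2 (0.918), MVK (0.854), PMVK (0.99), MVD (0.949), IDI1 (0.967), FDFT1 (0.96), SQLE (0.893), TM7SF2 (0.873), MSMO1 (0.914), NSDHL (0.845), EBP (0.984), INSIG1 (0.899), NR1H3 (0.956) and NPC2 (0.921). It was low in 10: HMGCS1 (0.861), FDPS (0.831), LSS (0.877), CYP51A1 (0.842), DHCR7 (0.94), SREBF2 (0.852), MBTPS1 (0.921), ABCA1 (0.941), MYLIP (0.897) and NPC1 (0.98). In the other two, vehicle replicate 1 was high for SREBF1 (0.9) and c-di-GMP replicate 4 was low for LSS (0.838).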

How the results depend on the processing

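With 8 libraries, the calls among members ran from 0 to 19, and among all genes from 0 to 4633, when 1 library was left out; the 19 and 4633 came without vehicle replicate 3, and each other omission gave 0. DESeq2 called 134 genes on 8 libraries. The fold changes below are scaled by TMM, and the sign of some with all 8 libraries depended on the scaling. After GC correction, the calls among all genes ran from 1476 (without vehicle replicate 1; 1551 without vehicle replicate 4) to 2638 (without c-di-GMP replicate 2), against 2378 with all 7. Leaving out each library in turn from 8, the log2 fold change of ACAT2 ran from -0.41 to 0.17, IDI1 from -0.39 to 0.50, FDFT1 from -0.64 to 0.27, MSMO1 from -0.32 to 0.27, NSDHL from -0.24 to 0.20, INSIG2 from -0.14 to 0.22, SREBF2 from -0.16 to 0.28 and NPC2 from -0.45 to 0.21; the opposite sign came without vehicle replicate 3 in each. Among single members, 521 values of the 7-library comparison kept their side of the threshold, 19 lost a call and 4 gained one. After GC correction these were 428, 11 and 3. Values called in neither fit were counted as kept even where their sign changed. Uncorrected LSS, for example, ran from -0.061 to 0.01, and corrected TM7SF2 from -0.047 to 0.12. Over all 8 libraries, the deviations of same-numbered libraries correlated at -0.0576 to 0.183, and not every library correlated best with its own number. Over 7 libraries they correlated at -0.00519 to 0.00982, and no vehicle library correlated best with its own number. With so few libraries, and vehicle replicate 3 apart from the rest, these values cannot decide whether the numbers pair libraries. With the replicate block, 0 members were called on 8 libraries, 18 on 7 and 9 after GC correction (0, 4093 and 1598 of all genes). The block lost NSDHL (adjusted p = 0.0573, and 0.0592 corrected). The causes were not tested.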
